A study of Mus musculus with 2 samples.

Results

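Genomic imprints are carried by DNA methylation and histone marks, and the genes described here encode the proteins that write, copy, read and erase those marks. They were a list of 53 genes, chosen by name for a known role in DNA methylation and demethylation, Polycomb repression, methylation of histone H3 at lysine 9 and of histone H4 at lysine 20, insulation, or histone deacetylation and demethylation. A gene was measured where a probe set, a group of probes reporting 1 transcript, carried its symbol and no other. By this rule 49 of the 53 had a value, out of 19938 genes in all, through 60 probe sets. Tdg was matched only by 4 probe sets that it shares with Tdg-ps2, and Suv39h1, Suv420h1 and Suv420h2 had no probe set under these symbols. The last 2 genes are now named Kmt5b and Kmt5c, and their values under the newer names are given with the enzymes of histone H3 and H4 below.

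The cells were mouse embryonic fibroblasts, primary connective-tissue cells in culture, taken at 13.5 days post coitum from MatDup.dist7 and from PatDup.dist7 embryos. In MatDup.dist7 the distal part of chromosome 7 is present as 2 maternal copies with no paternal one, and in PatDup.dist7 as 2 paternal copies with no maternal one, so the copy number is equal while the parental origin differs. Total RNA of each genotype was hybridised to 1 array, so there were no replicates and no wild-type array, and no difference was tested against variation between cultures. Not given in the sources used here were the strain, the passage, the number of embryos behind each culture and the exact end of the duplicated segment.

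DNA methylation at CG dinucleotides is set by DNMT3 enzymes in the germ line, and the copy on the new strand is made at each replication by DNMT1, which UHRF1 guides to hemimethylated sites. TET enzymes start its removal by oxidising the methyl group. At imprinting control regions ZFP57 binds the methylated copy and brings in TRIM28 and SETDB1, while CTCF binds the unmethylated copy of the region between Igf2 and H19 and, with cohesin, insulates Igf2. Polycomb complexes and the H3K9 enzyme G9a add repression in the Kcnq1 domain, mostly in the placenta.

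The values are intensities on a linear scale. Differences are given as log2(intensity + 16) in MatDup.dist7 minus that in PatDup.dist7, called the log2 difference, with the probe sets of a gene averaged, and a fold on this scale understates the change of a weak signal. The median intensity over all probe sets was 68.6 in MatDup.dist7 cells and 64.2 in PatDup.dist7 cells, and the median log2 difference over all genes was 0.02. Igf2, a paternally expressed gene of the distal segment, had intensities of 7.48 and 1013, and the maternally expressed Cdkn1c 1109 and 0.0132, with MatDup.dist7 first as in every pair of values below, the direction that the genotype labels give. With no replicate, the only measure of spread at hand was the disagreement between probe sets of the same gene. Their log2 differences had a standard deviation of 0.43 (1931 probe sets of 724 genes). Only genes whose higher value exceeded the median of all probe sets entered it, so it was not measured on weaker genes. It holds no variation between cultures.

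Most regulators differed little between the genotypes. Of the 49, 3 were at least 2-fold apart, which is 6.12%, against 7.63% of all genes. Uhrf1 and Zfp57 were higher in MatDup.dist7, where 4.47% of all genes lay beyond 2-fold, and Tet2 was higher in PatDup.dist7, where 3.16% did. At 1.5-fold there were 10 regulators (20.4%, against 27.9% of all genes): 4 higher in MatDup.dist7 (background 15.5%) and 6 higher in PatDup.dist7 (background 12.5%). After quantile normalisation of the arrays, this split was 3 and 9, with 13.8% of all genes beyond 1.5-fold each way. With a pseudocount of 64 the order of the shares turned, with 10.2% of the regulators and 7.82% of all genes at least 1.5-fold apart. The 4 were Uhrf1, Zfp57, Hells and Dnmt3b, and the 6 were Tet2, Dnmt3a, Cbx1, Tet3, Ctcf and Mbd1. The median log2 difference of the regulators was -0.02 and their median absolute difference 0.26, against 0.38 over all genes. For 33 of the 49 (67.3%) the difference was smaller than the standard deviation between probe sets, as it was for 56.2% of all genes. Both shares include genes too weak to have entered that standard deviation.

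A signal filter kept genes whose higher value exceeded the median of all probe sets, an intensity of 66.4, and 45 of the 49 regulators passed it, as did 12733 of the 19938 genes. Dnmt3l, Tet1, Ctcfl and Suv39h2 did not. Uhrf1, Zfp57 and Tet2 passed it only through the array on which they were higher, so no share among genes above the filter is given.

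**Figure D1:**
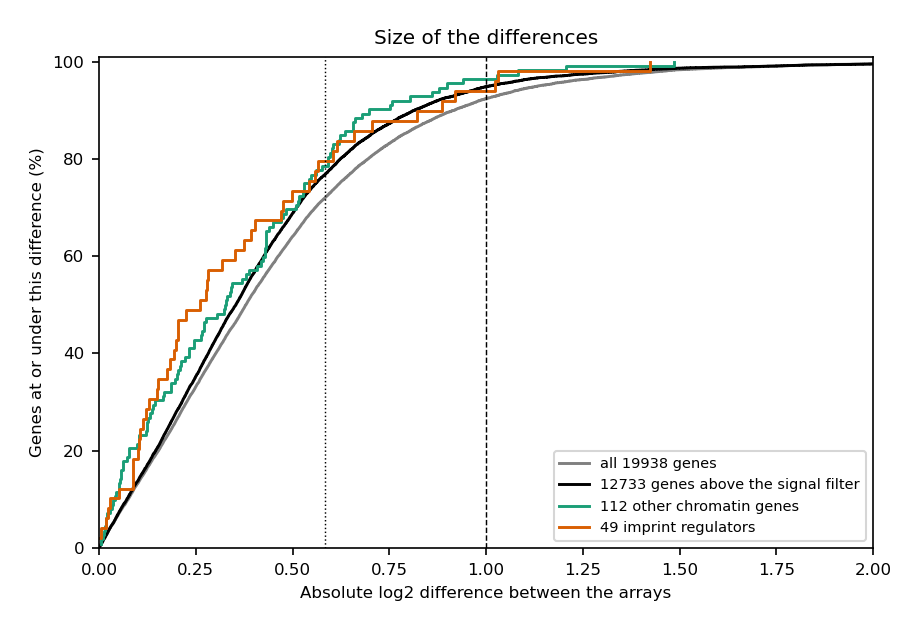
Share of genes (vertical axis, %) at or under a given absolute log2 difference between the 2 arrays (horizontal axis), for all 19938 genes, the 12733 above the signal filter, 112 other chromatin genes and the 49 imprint regulators; dotted and dashed lines mark 1.5-fold and 2-fold. The curve of the regulators lies above that of all genes at small differences, with a median of 0.26 against 0.38.

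The maintenance methylation genes held the largest difference among the 49. Uhrf1, whose product recognises hemimethylated CG sites behind the replication fork, had an intensity of 122 in MatDup.dist7 cells and 35.4 in PatDup.dist7 cells, a log2 difference of 1.42, or 2.68-fold. A smaller absolute difference was seen for 97.8% of all genes. With pseudocounts of 1 and 64 the difference was 1.75 and 0.90. Hells, a chromatin remodeller that DNA methylation of silent regions depends on, had 226 and 112 (0.92). Uhrf2, the relative of Uhrf1, had 222 and 164 (0.40). Dnmt1, the enzyme that UHRF1 recruits, lay the other way, with 203 in MatDup.dist7 cells and 272 in PatDup.dist7 cells (-0.39, under the standard deviation between probe sets). The genes of this step therefore did not differ in parallel: the log2 differences of Uhrf1 and Dnmt1 were 1.81 apart.

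Uhrf1 and Hells are known to be transcribed mainly in proliferating cells. Of 19 DNA replication genes measured, 13 had a positive log2 difference, and the median was 0.22. Only 1 (Prim1, 45.9 and 17.6, under the filter) was higher by at least 1.5-fold in MatDup.dist7 cells and none in PatDup.dist7 cells. That is 5.26% of the list, against 27.9% of all genes. Of 16 mitosis genes, 12 had a positive difference, 5 were higher by at least 1.5-fold in MatDup.dist7 cells and 1 in PatDup.dist7 cells, and the median was 0.42. Plk1, a mitotic kinase gene, had 427 and 237 (0.81). Ttk, the 1 beyond 1.5-fold in the other direction, had 44.5 and 85.0 (-0.74). Of the DNA replication genes, 6 had a negative log2 difference, the furthest from 0 being those of Cdt1 (-0.58) and E2f1 (-0.56), both within 1.5-fold. Cdt1, E2f1 and Ttk were named after their values were seen. The part of proliferation in the values of Uhrf1 and Hells was not tested.

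The promoters of the 3 regulators beyond 2-fold and of Hells are shown because the CG dinucleotide, in capitals, is the site on which these proteins act, and because the 4 promoters differ widely in how many they hold. Each line gives the 250 bases before a RefSeq start site, 5′ to 3′ on the gene's strand, from the GRCm38.p6 table. Of several starts the one with the most CG was taken. The Uhrf1 window is chr17:56304063-56304312 on the plus strand, Hells chr19:38930740-38930989 plus, Zfp57 chr17:37002275-37002524 plus and Tet2 chr3:133544391-133544640 minus.
Uhrf1: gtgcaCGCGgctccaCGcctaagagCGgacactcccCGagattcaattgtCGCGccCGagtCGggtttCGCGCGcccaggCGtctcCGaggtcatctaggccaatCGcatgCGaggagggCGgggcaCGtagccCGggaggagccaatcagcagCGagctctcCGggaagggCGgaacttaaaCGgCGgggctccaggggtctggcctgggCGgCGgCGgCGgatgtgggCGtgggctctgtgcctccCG
Hells: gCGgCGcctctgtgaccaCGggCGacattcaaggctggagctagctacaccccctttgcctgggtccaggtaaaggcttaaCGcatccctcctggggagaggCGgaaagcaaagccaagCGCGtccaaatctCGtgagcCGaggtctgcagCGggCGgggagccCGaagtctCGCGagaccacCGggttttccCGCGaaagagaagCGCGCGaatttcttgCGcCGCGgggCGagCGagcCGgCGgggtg
Zfp57: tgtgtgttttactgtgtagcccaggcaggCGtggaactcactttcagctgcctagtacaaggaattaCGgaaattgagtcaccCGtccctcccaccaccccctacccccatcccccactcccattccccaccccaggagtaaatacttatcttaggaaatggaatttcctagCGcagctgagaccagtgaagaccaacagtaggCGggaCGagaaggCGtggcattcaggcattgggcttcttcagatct
Tet2: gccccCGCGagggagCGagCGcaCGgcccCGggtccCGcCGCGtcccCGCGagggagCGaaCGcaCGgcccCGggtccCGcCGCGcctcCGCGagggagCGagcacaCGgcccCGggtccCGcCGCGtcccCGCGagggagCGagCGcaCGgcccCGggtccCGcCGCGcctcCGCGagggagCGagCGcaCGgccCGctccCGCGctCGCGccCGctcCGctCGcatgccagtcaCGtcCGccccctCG

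The windows of Uhrf1 and Hells held 30 and 28 CG, that of Tet2 51, and that of Zfp57 7. Over the 17491 protein-coding genes in the table the median was 11, and 45 of the 53 regulators had an entry, with a median of 22. Not in the table were Ctcfl, Hdac1, Stag2, Arid4a, Mbd2, Cbx2, Mbd1 and Rad21. At least 20 CG were present in 27 of the 45 (60%) and in 25.9% of all genes. The highest was Tet2 and the lowest Dnmt3l, with 5. Promoters dense in CG and promoters poor in it both occurred among the genes that differed: Tet2 and Dnmt3a (40 CG) were higher in PatDup.dist7, Uhrf1 (30) and the CG-poor Zfp57 in MatDup.dist7.

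**Figure D2:**
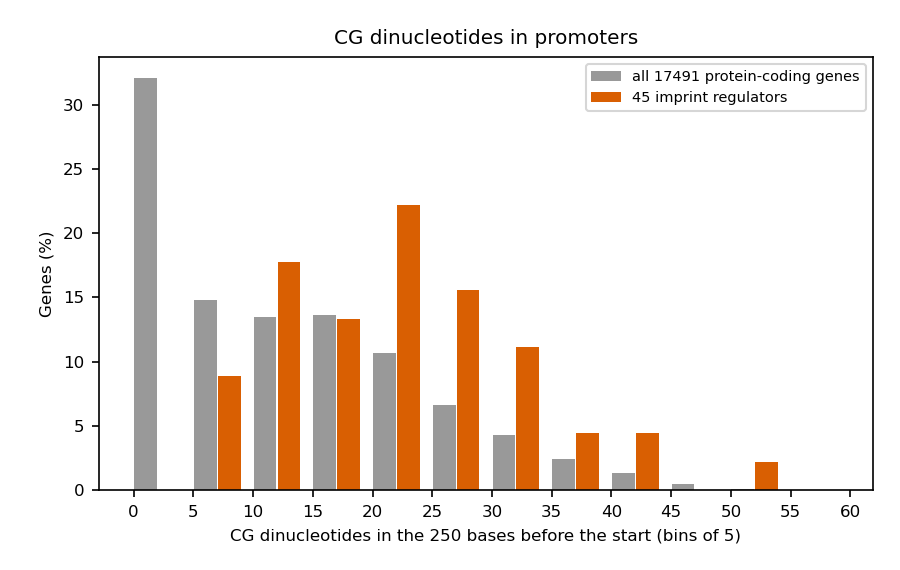
Number of CG dinucleotides in the 250 bases before the start site (horizontal axis, bins of 5) against the share of genes (vertical axis, %), for 17491 protein-coding genes and 45 imprint regulators. The regulators lie to the right, with a median of 22 CG against 11, and none of them has fewer than 5.

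Short motifs were searched on both strands of the same windows. The E2F motif, bound by the factors that drive genes at the start of S phase, was taken as TTTCCCGC, TTTGGCGC, TTTGCCGC or TTTCGCGC. The motif occurred in 7 of the 45 regulators (15.6%) and in 2.45% of all promoters. Among promoters with at least 20 CG it occurred in 22.2% of the 27 regulators and in 4.52% of all 4538. Uhrf1 carried it 185 bases and Hells 62 bases before the start. Dnmt1, Stag1, Suz12, Suv39h1 and Suv420h2 carried it as well. The log2 differences were -0.39 for Dnmt1, 0.32 for Stag1, -0.13 for Suz12 and, through its newer name, -0.04 for Suv420h2. These lay in both directions, and Suv39h1 was not measured. TGCCGC, the hexamer that ZFP57 recognises when methylated and which overlaps TTTGCCGC, occurred in 7 of the 45 (15.6%) and in 10.7% of all promoters. Among promoters with at least 20 CG it occurred in 14.8% and 23.9%. Such matches are letters in a window and no evidence of binding.

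The enzymes that set new methylation differed in opposite directions. Dnmt3a, which methylates imprinting control regions in germ cells and is widely expressed later, had 139 in MatDup.dist7 cells and 270 in PatDup.dist7 cells (log2 difference -0.89, 1.85-fold). Dnmt3b, its relative active in the early embryo and at repeats, had 231 and 147 (0.60, 1.52-fold). Each is represented by 1 probe set, and their log2 differences were 1.49 apart. The signs held under all 10 alternative settings, with ranges of -0.96 to -0.72 for Dnmt3a and 0.49 to 0.66 for Dnmt3b. With 1 probe set, only quantile normalisation and centring on the median over all genes could have reversed a sign. Both gave -0.91 for Dnmt3a and 0.58 for Dnmt3b. Dnmt3l, the inactive germ-cell cofactor of DNMT3A, gave weak signals of 23.7 and 19.7 (0.15).

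Dnmt3l, Zfp57 and Ctcfl are known mainly from germ or pluripotent cells. Of 16 markers of such cells, 5 passed the signal filter, the median log2 difference was -0.17, and the summed intensity was 1135 in MatDup.dist7 cells and 1313 in PatDup.dist7 cells. Of the 16, 10 had a negative log2 difference and 6 a positive one. The 5 above the filter were Fgf4 (-0.61), Sox2 (-0.55), Nanog (-0.43), Zfp42 (-0.04) and Utf1 (0.21), named after their values were seen. Pou5f1, a defining factor of pluripotent cells under the filter, stood at 29.9 and 46.1. Nanos3, a germ cell gene also under the filter, went against most of the list, at 58.1 and 10.6 (1.48).

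The 3 measured genes of the demethylation list, all TET genes, were lower in MatDup.dist7. Tet2, which encodes an enzyme that oxidises 5-methylcytosine, had 44.9 in MatDup.dist7 cells and 108 in PatDup.dist7 cells, a log2 difference of -1.02, or 2.03-fold. Tet3, its relative known for acting in the fertilised egg, had 48.1 against 76.6 on 1 probe set and 84.2 against 169 on the other, a mean of -0.71. Tet1, typical of pluripotent cells, had differences of -0.27, -0.16 and -1.24 on its 3 probe sets, all of them weak. The mean for Tet1 was -0.56. All 6 probe sets of the TET genes were lower in MatDup.dist7, as were 9698 of the 19938 genes. They read the same 2 RNA samples and are not replicates. With all probe sets of a gene on the same side, only quantile normalisation and centring on the median over all genes could reverse its sign. The sign of each held under every alternative that gave a value, 10 for Tet2 and Tet3 and 9 for Tet1, which fails the filter. The sizes did not: with a pseudocount of 64 the differences were -0.25 for Tet1, -0.66 for Tet2 and -0.49 for Tet3.

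Base excision completes demethylation after oxidation, and 9 other genes of this step or linked to it were measured. Their median log2 difference was -0.19, with 1 at least 1.5-fold higher in MatDup.dist7 cells and 3 in PatDup.dist7 cells (15.5% and 12.5% of all genes). The 3 were Smug1, a glycosylase gene with weak signals (-1.03), the cytidine deaminase gene Apobec1 with 214 and 425 (-0.94), and Gadd45a, a DNA damage response gene, with 92.8 and 184 (-0.88). The 1 in the other direction was the repair scaffold gene Xrcc1, with 209 and 127 (0.66), named after its value was seen.

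Genes of methyl-CG binding and deacetylation were close between the genotypes except for Mbd1. Mbd1, a binder of methylated CG linked to H3K9 methylation, had 148 in MatDup.dist7 cells and 235 in PatDup.dist7 cells (-0.61). Mbd2 had 797 and 857 (-0.10), and Mbd3, a subunit of the NuRD remodelling and deacetylase complex, 758 and 622 (0.28). The deacetylase genes Hdac1 and Hdac2 differed by 0.09 and -0.09. Of 17 other NuRD and deacetylase genes, 4 were higher by at least 1.5-fold in MatDup.dist7 cells and 1 in PatDup.dist7 cells (15.5% and 12.5% of all genes). Their median was 0.07. Hdac11 had 303 and 122 (1.21), Hdac10 11.3 and 41.9 (-1.08, under the filter), and Hdac9 76.3 and 38.8 (0.75). Of 5 other methyl-CG binding genes, Mbd4, also a glycosylase, was the 1 beyond 1.5-fold, with 26.8 and 53.4 (-0.70, under the filter), and their median was 0.13.

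**Figure D3:**
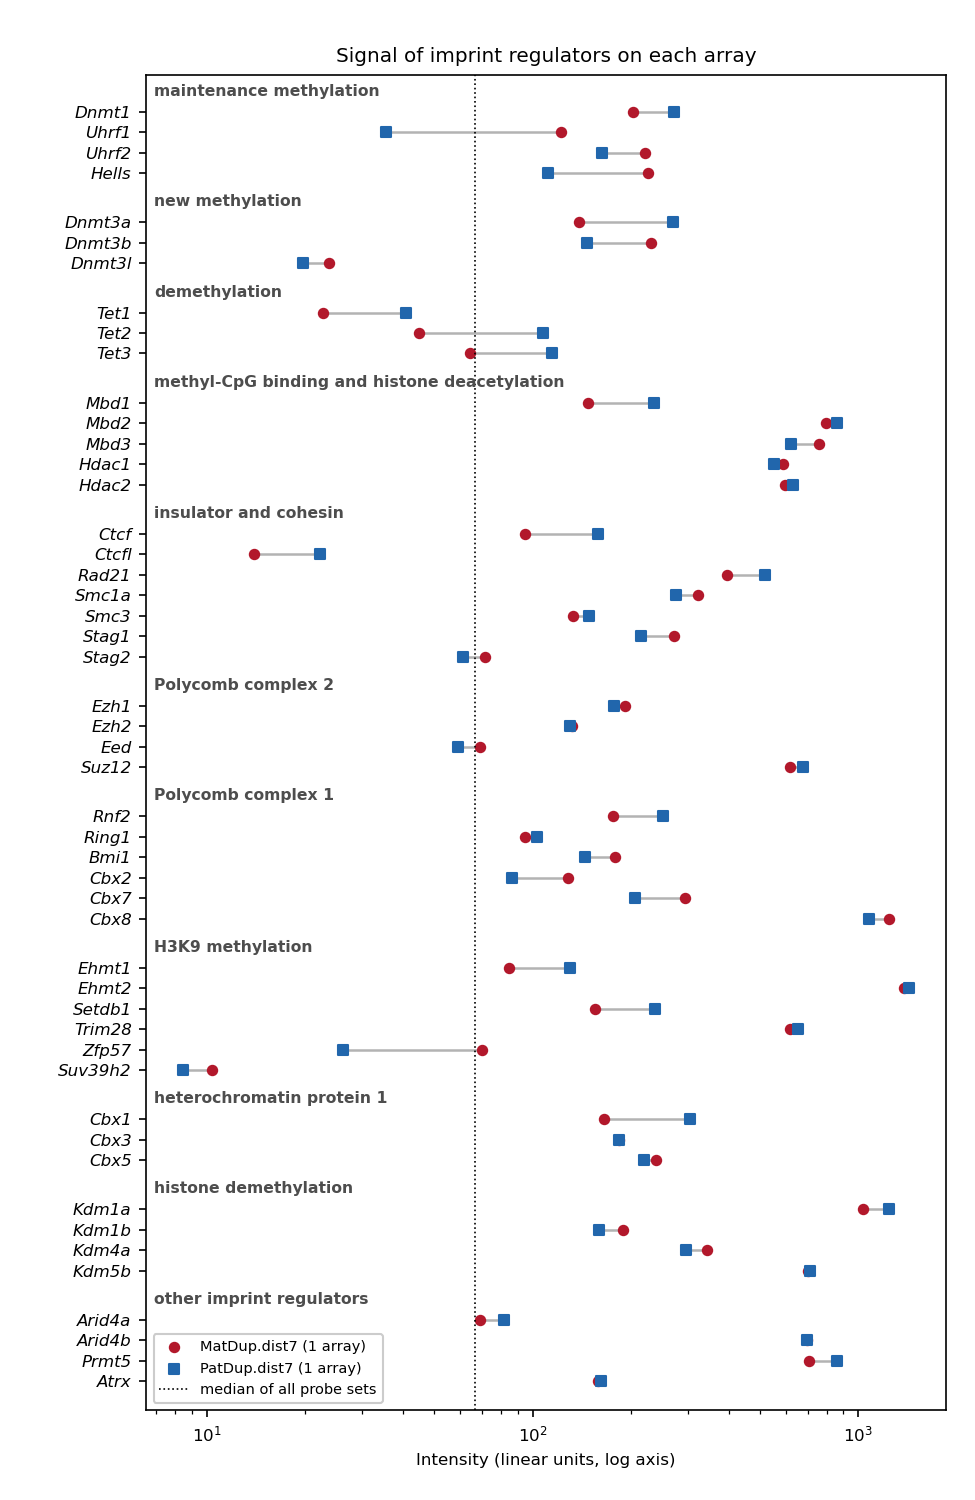
Intensity of the 49 measured imprint regulators on the MatDup.dist7 array (circles) and the PatDup.dist7 array (squares), by role, on a log axis; the dotted line is the median of all probe sets, and a gene with several probe sets is drawn at their mean level. The widest gaps are those of Uhrf1, Zfp57 and Tet2, and 4 genes lie under the dotted line on both arrays: Dnmt3l, Tet1, Ctcfl and Suv39h2. Positions of different genes are not comparable, since probe sets differ in brightness.

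Of the insulator and cohesin genes, Ctcf was the only 1 of 7 beyond 1.5-fold, where 27.9% of all genes lay. Ctcf, the insulator protein of the Igf2 and H19 region, had 94.5 in MatDup.dist7 cells and 159 in PatDup.dist7 cells (log2 difference -0.66, 1.58-fold, with a range of -0.75 to -0.49 over the alternatives). Its testis relative Ctcfl was weak, at 14.0 and 22.3 (-0.35). The subunits of the cohesin ring did not share a direction: Rad21 had 396 and 518 (-0.37), Smc3 133 and 149 (-0.15) and the X-linked Smc1a 321 and 277 (0.20). The alternative STAG subunits were Stag1, at 272 and 215 (0.32), and the X-linked Stag2, at 71.2 and 61.2 (0.18). All 6 differences other than that of Ctcf were smaller than the standard deviation between probe sets, which was not measured on genes as weak as Ctcfl.

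Genes that load, release or acetylate cohesin, or serve it in meiosis, had a median of 0.48, with 9 of 12 positive, 4 at least 1.5-fold higher in MatDup.dist7 cells and none in PatDup.dist7 cells. The largest was Rec8, the meiotic relative of Rad21, with 46.4 and 6.31 (1.48, under the filter). Cdca5, which encodes the cohesion factor sororin, had 150 and 75.7 (0.86), and Sgo1, a protector of centromeric cohesion, 74.3 and 42.8 (0.62). Cdca5, Sgo1 and the acetyltransferase gene Esco2 (0.60, under the filter) act in the S and M phases, and the median of the mitosis list above, 0.42, had the same sign. The part of proliferation in these values was not tested.

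None of the 4 listed genes of Polycomb complex 2 and 6 of complex 1 had a mean difference beyond 1.5-fold, where 27.9% of all genes lay, but Eed was within it only as the mean of opposed probe sets. In complex 2, which methylates histone H3 at lysine 27, the catalytic genes Ezh1 and Ezh2 had differences of 0.11 and 0.02, with Ezh2 at 133 and 130. Suz12, the scaffold, had 618 and 677 (-0.13). Eed encodes the subunit that reads the mark, and both its probe sets were beyond 1.5-fold, in opposite directions: 37.2 against 9.78 (1.05) on 1 and 120 against 202 (-0.68) on the other. Its mean of 0.18 therefore says little, and with the brighter probe set alone Eed counts among the genes beyond 1.5-fold. Of 7 accessory genes of complex 2, Jarid2 was the 1 beyond 1.5-fold, with 61.8 and 102 (-0.60), and their median was 0.16.

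In complex 1, which ubiquitinates histone H2A, the ligase genes Rnf2 and Ring1 had differences of -0.47 and -0.10 and their partner Bmi1 had 0.28. The chromobox genes whose products read methylated lysine 27 were all higher in MatDup.dist7: Cbx2 had 129 and 86.5 (0.50), Cbx7 293 and 206 (0.48) and Cbx8 1241 and 1079 (0.20). The sign of each of these 6 genes held under all 10 alternatives. Each has 1 probe set, so only quantile normalisation and centring on the median over all genes could have reversed it. Of 16 other complex 1 genes, 2 were higher by at least 1.5-fold in MatDup.dist7 cells, Scmh1 with 180 and 100 (0.76) and Pcgf2 with 149 and 88.4 (0.66). None was in PatDup.dist7 cells, and the median was -0.08. Over all genes these shares were 15.5% and 12.5%.

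Among the genes of H3K9 methylation, Zfp57 stood apart from its partners. Zfp57, the zinc finger gene that protects imprints after fertilisation, had 70.2 in MatDup.dist7 cells and 26.2 in PatDup.dist7 cells, a log2 difference of 1.03, or 2.04-fold. The higher value is just above the filter, and with a pseudocount of 64 the difference was 0.57. Its corepressor Trim28 had 615 and 654 (-0.09), and Setdb1, the methyltransferase that TRIM28 brings in, 155 and 237 (-0.57). Ehmt2, which encodes G9a, had 1382 and 1434 (-0.05), whereas its partner Ehmt1 had 84.7 and 131 (-0.54). Suv39h2, a methyltransferase of pericentromeric heterochromatin, was weak at 10.4 and 8.43 (0.11). Through their newer names, Suv420h1 and Suv420h2, which methylate histone H4 at lysine 20 downstream of H3K9, had 103 and 145 (-0.44) and 287 and 295 (-0.04). None of 8 other H3K9 genes was beyond 1.5-fold, where 27.9% of all genes lay, and their median was -0.17.

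The heterochromatin protein 1 genes, whose products bind methylated H3K9, differed from each other. Cbx1 had 166 in MatDup.dist7 cells and 305 in PatDup.dist7 cells (-0.82, 1.77-fold), a difference between -0.88 and -0.69 under the alternatives. Cbx5 had 240 and 219 (0.12). Cbx3 had 7 probe sets with differences from -0.39 to 0.60 and a mean of -0.00066, so a single probe set of this gene would have shown either direction. The log2 differences of Cbx3 and Cbx5 were 0.82 and 0.94 above that of Cbx1.

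Histone demethylases and the other imprint regulators all lay within 1.5-fold, as did 14367 of the 19938 genes. Their median absolute differences were 0.21 and 0.11, against 0.38 over all genes. Kdm1a, which removes methyl groups from lysine 4 of histone H3, had 1034 and 1241 (-0.26), and Kdm1b, its relative needed to set maternal imprints in oocytes, 190 and 160 (0.22). Kdm4a differed by 0.20 and Kdm5b, at 701 and 710, by -0.02. Arid4a and Arid4b, linked to the imprinted Prader-Willi region, differed by -0.19 and -0.01. Prmt5, an arginine methyltransferase gene, had 703 and 858 (-0.28), and the remodeller gene Atrx 159 and 162 (-0.03). Of 10 other histone demethylase genes, Kdm4c (242 and 150, 0.64) and Kdm7a (-0.90, under the filter) were beyond 1.5-fold, and the median was -0.12.

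**Figure D4:**
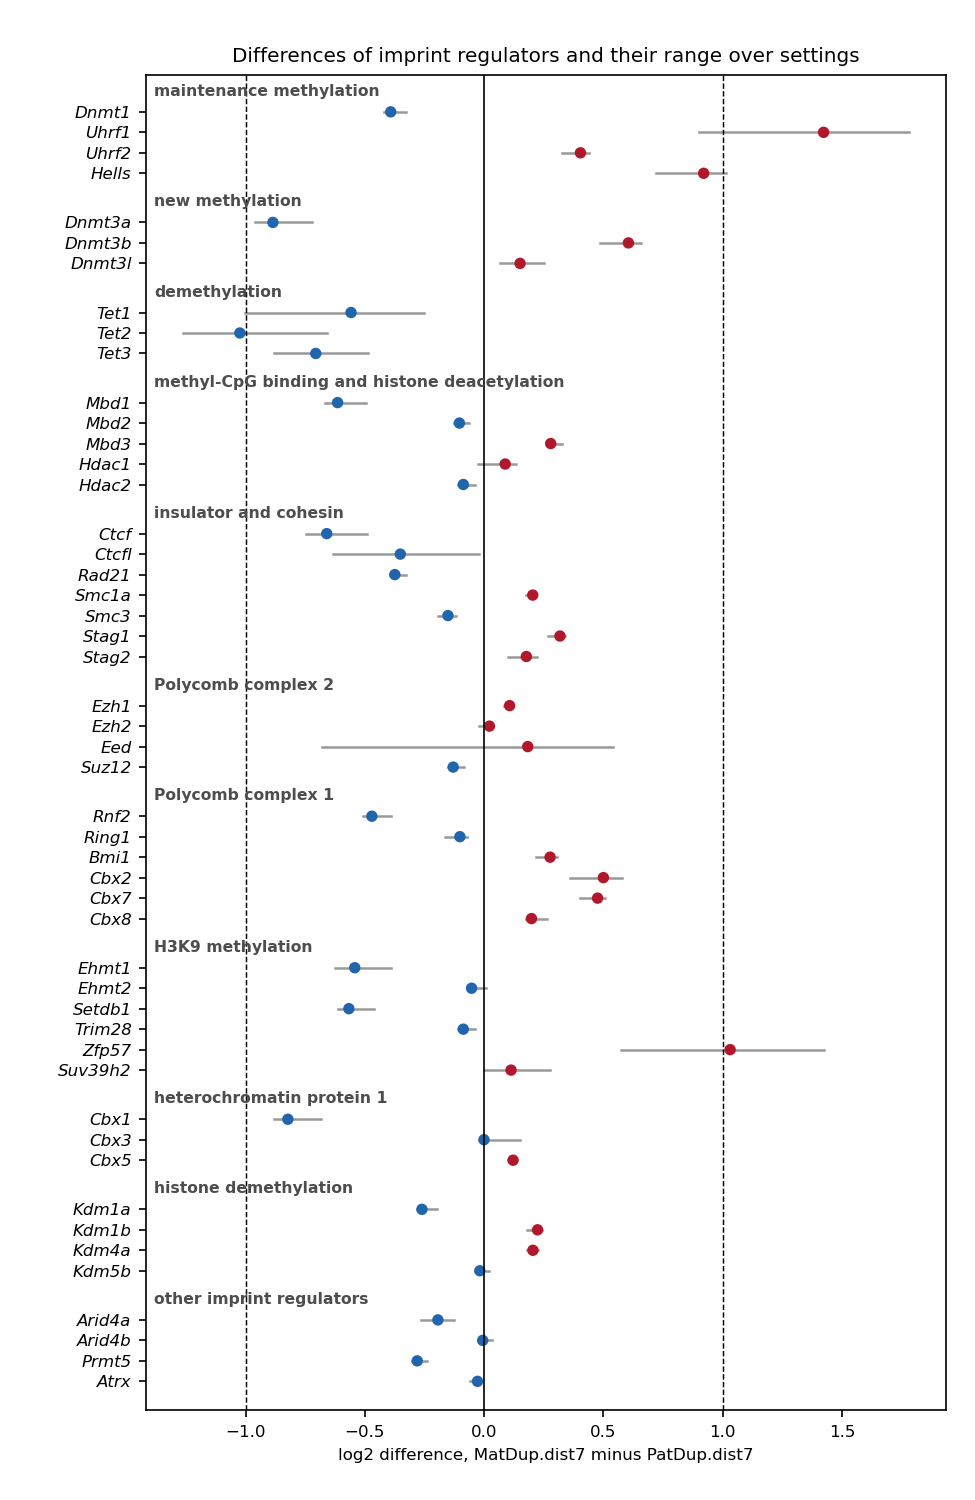
Log2 difference (MatDup.dist7 minus PatDup.dist7, horizontal axis) of the 49 measured imprint regulators by role; points show the reported value and grey lines the lowest and highest value under the alternative settings, and dashed lines mark 2-fold. The 3 TET genes lie left of 0 over their whole range, Uhrf1, Hells and Dnmt3b right of it, and the line of Eed crosses it from -0.68 to 0.54.

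Over the wider set of 119 other chromatin genes listed, 112 were measured, with a median log2 difference of 0.01 and a median absolute difference of 0.33. Of these, 24 (21.4%) were at least 1.5-fold apart, 15 higher in MatDup.dist7 cells and 9 in PatDup.dist7 cells, a share under the 27.9% of all genes and near the 20.4% of the regulators. Among 12 writers of H3K4 methylation, Cxxc1, which binds unmethylated CG, was the 1 beyond 1.5-fold, with 77.0 and 127 (-0.62), and the median was 0.01. Of 8 histone chaperone and H3.3 genes, the subunits of the replication-coupled chaperone Chaf1a (47.6 and 20.5, 0.80, under the filter) and Chaf1b (115 and 70.0, 0.60) were beyond 1.5-fold, both higher in MatDup.dist7. Of 8 other H4K20 and arginine methyltransferase genes, Prmt1 (403 and 249, 0.66) and Kmt5a (492 and 748, -0.59) were.

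**Figure D5:**
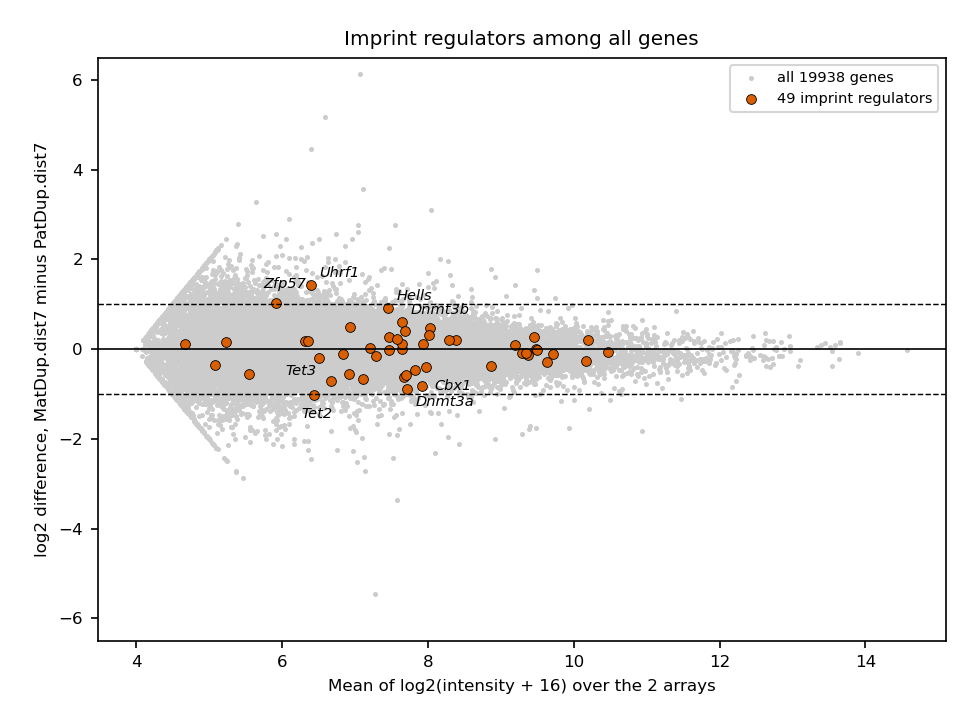
Mean log2(intensity + 16) of the 2 arrays (horizontal axis) against the log2 difference, MatDup.dist7 minus PatDup.dist7 (vertical axis), for all 19938 genes (grey) and the 49 imprint regulators (orange); dashed lines mark 2-fold. Uhrf1, Zfp57 and Tet2 are the regulators beyond these lines, at 1.42, 1.03 and -1.02, and the regulators lie within the cloud of all genes.

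By position, 2 measured regulators are on chromosome 7, Eed and Trim28, and both lay within 1.5-fold. Whether they lie in the duplicated segment was not established. Transcripts of the sex chromosomes set the arrays apart as well. Eif2s3y, a gene of the Y chromosome, had 112 and 6.44, Uty 77.9 and 2.61, Kdm5d 122 and 22.9, and Xist was listed at 0.00166 and 91.2. Sex and genotype therefore cannot be told apart. The X-linked Kdm5c, Kdm6a, Eif2s3x and Ddx3x, which are known to escape X inactivation, had log2 differences of -0.85, -0.86, -0.71 and -0.60, among them 2 histone demethylase genes outside the list. The 3 X-linked regulators did not follow them, with differences of 0.20 for Smc1a, 0.18 for Stag2 and -0.03 for Atrx.

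In bulk cultures, more RNA per cell and more cells of a type cannot be told apart, and marker genes of several cell types differed. All 14 fibroblast markers were measured, 13 above the filter, with a median of -0.30 and a summed intensity of 43173 in MatDup.dist7 cells and 51574 in PatDup.dist7 cells. Of these, 11 were lower in MatDup.dist7 and 3 higher. Dcn (142 and 592) and Postn (520 and 1788) were lower by more than 2-fold. S100a4 (246 and 130), Pdgfra (99.7 and 72.9) and Vim (11913 and 11542) were higher. Of 12 macrophage markers, 9 were lower in MatDup.dist7 (median -0.49, sums of 5872 and 6788), with Mrc1 at 31.7 and 103. The other 3 were higher there, among them Adgre1 at 548 and 273, and Csf1r (855 and 746) and Lyz2 (1711 and 1509) by less; these 3 were named after their values were seen. All 7 cartilage markers were higher in MatDup.dist7 (median 0.70, sums of 1108 and 421), with Col2a1 at 599 and 141 and Comp, under the filter, at 54.9 and 4.44. Of 9 epithelial markers 8 were higher there (median 0.39, sums of 1023 and 626), with Krt19 at 152 and 18.8 and Krt5, weaker, with a log2 difference of 1.16. Of 8 neural and glial markers 5 were higher (median 0.43, sums of 2226 and 1239), with Stmn2 at 755 and 73.7. Of 7 endothelial markers, 3 were higher in MatDup.dist7 and 4 lower, and 1 passed the filter (median -0.03, sums of 328 and 356). Esam was listed at 22.6 and 0.00156, while Kdr, Tek and Tie1 had log2 differences of -0.75, -0.73 and -0.75. Of the 8 skeletal muscle markers, 6 were lower in MatDup.dist7 and 2 higher (median -0.17, sums of 3117 and 2835). Myf5, with the largest difference but under the filter, stood at 5.17 and 21.1. Acta1, 1 of the 2 that were higher, had 1887 and 1379. Acta1, Kdr, Tek, Tie1, S100a4 and Pdgfra were named after their values were seen. The part of these differences in the values of the regulators was not tested.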

How the data were processed

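Total RNA of 1 MatDup.dist7 and 1 PatDup.dist7 fibroblast culture was labelled and hybridised to Affymetrix whole-transcript arrays, per the labels' protocols. Each probe set has 1 deposited intensity for each array, linear and not logged. Affymetrix Expression Console is the software named in the submitters' processing notes, while its settings for background, summarisation and normalisation were not given in the sources used here. Of the values, 4.78% and 5.03% on the 2 arrays were under 1, which was not read as absence.

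Of 35557 probe sets, 21789 had 1 gene symbol in the platform annotation, and those of a gene were averaged after log2(intensity + 16). The list of genes was matched by this symbol. With 1 array per genotype no test was made and no p-value is given. Counts use 2-fold and 1.5-fold rules, set beside the same counts over all genes. Promoter windows and chromosomes come from RefSeq tables of GRCm38.p6. Calculations used Python 3.11.15, pandas 2.3.3 and numpy 2.4.6 and were tested on simulated data. The 10 alternatives changed the pseudocount, scaling, filter, treatment of probe sets and name matching.

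Every measured list member was named, with up to 3 of the larger differences of each other chromatin list. The members and lists were chosen with earlier results of these data known.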

Additional observations from a re-analysis of the deposited data

How the results depend on the processing

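The median log2 difference over the regulators stayed between -0.04 and -0.02 under all 10 alternatives. Counts at the fold rules depended on how weak signals were treated. With a pseudocount of 64, 0 regulators were beyond 2-fold in either direction (0.868% of all genes), and 2 were higher by at least 1.5-fold in MatDup.dist7 cells and 3 in PatDup.dist7 cells (4.10% and 3.72% of all genes). With a pseudocount of 1, 3 and 2 were beyond 2-fold (10.9% and 8.55% of all genes), and 4 and 10 beyond 1.5-fold (21.9% and 17.7%), so that the 10 make up a larger share than among all genes and the 4 a smaller one. After quantile normalisation, 1 was higher by at least 2-fold in MatDup.dist7 cells, Zfp57 having dropped under this fold (0.96). Of the single regulators, 41 of 49 kept their sign under every alternative that gave a value, 7 near 0 or with probe sets that disagree did not (Hdac1, Ezh2, Eed, Ehmt2, Cbx3, Kdm5b and Arid4b), and Suv39h2 had no difference once weak values were set to a floor. No paired analysis was possible because each genotype has 1 array. Precision is limited by the number of arrays, and 44 of the 49 regulators rest on 1 probe set. For such a gene only quantile normalisation and centring on the median over all genes could reverse the sign. Under the other alternatives its sign was fixed in advance.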
